A study of Homo sapiens with 15 samples.

Results

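The genes described here are 28 members of the cholesterol pathway and its control and were chosen by name. They were found among 23346 gene symbols counted in 15 polyA-selected bulk RNA-seq libraries of H9, a human embryonic stem cell line in wide use, during differentiation to definitive endoderm, the germ layer that forms gut, liver and pancreas. Differentiated cells were sampled on day 1, after activin A, which stands in for Nodal, together with CHIR99021, which blocks GSK3 and so switches on Wnt signalling, and on days 2, 3 and 4, after activin A alone, all in Advanced RPMI 1640. Undifferentiated cells, kept in E8 medium, were the day 0 group. Each day had 3 libraries, numbered 1, 2 and 4, and the labels do not say whether separate cultures gave them. The p-values therefore measure the spread between these libraries alone, which may be technical. Medium, added factors and time changed together after day 0 and cannot be told apart in any comparison with it. Between day 1 and day 2, the withdrawal of CHIR99021 and a further day of culture came together and cannot be separated. In bulk RNA, fewer cells of a type and less RNA per cell cannot be told apart either.

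Cells make cholesterol from acetyl-CoA through the mevalonate pathway, which ends in squalene, and through a set of ring-closing, demethylating and reducing enzymes that turn squalene into cholesterol. The genes of these enzymes are switched on by the transcription factor SREBP2. While sterols are plentiful, the INSIG proteins hold SREBP2, bound to SCAP, in the endoplasmic reticulum. SREBP2 is released when sterols run low. Excess sterol instead activates the nuclear receptor LXR, which switches on the exporters ABCA1 and ABCG1 and the ubiquitin ligase MYLIP, which lowers lipoprotein uptake. The members were set in 5 groups by role: 7 early mevalonate pathway genes, 10 genes labelled squalene to cholesterol, 5 SREBP control genes, 4 genes of sterol uptake and movement, and 2 efflux genes. The squalene to cholesterol group includes FDFT1, whose enzyme makes squalene. All 28 passed the filter on low counts.

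The promoters of a few members are shown to place them beside the values, since SREBP2 is known to act at sterol response genes together with NF-Y, the factor that binds the CCAAT box. Windows of 250 bases before the transcription start came from RefSeq (GRCh38.p14) and were found for 24 of the 28 members, as 30 windows because some genes have several starts; ABCG1, ACAT2, FDFT1 and SQLE had no entry. CCAAT, searched on both strands, was in 18 of the 30 windows (60%) and in at least 1 window of 17 of the 24 genes, against 32% of 35116 windows of all genes. A sterol regulatory element core, TCACNCCAC on either strand, was in the SREBF2 window alone among members, against 0.883% of all windows. The LXR direct repeat was searched only in a perfect form, with its repeated unit identical in both copies. This form, on either strand, was in no member window and in 0.0142% of all windows. Forms with changed letters were not searched, so the search does not show that a member window, such as that of ABCA1, lacks an LXR element. A match is a match of letters only. The windows below run 5′ to 3′ on the strand of the gene, with matches to these motifs in capitals (CCAAT appears as ATTGG when it lies on the opposite strand). HMGCS1 at chr5:43313413-43313662 on the minus strand, with 2 CCAAT matches, and INSIG1 at chr7:155297628-155297877 on the plus strand, with 1, are shown as genes whose RNA was lower on day 4. Another HMGCS1 window, at chr5:43313182-43313431, had 0 CCAAT matches and is not shown. SREBF2 at chr22:41832855-41833104 on the plus strand is shown for the sterol element, whose first base lies 133 bases before the start. ABCA1 at chr9:104928156-104928405 on the minus strand is shown as an efflux gene with no exact match to the letters searched.
HMGCS1: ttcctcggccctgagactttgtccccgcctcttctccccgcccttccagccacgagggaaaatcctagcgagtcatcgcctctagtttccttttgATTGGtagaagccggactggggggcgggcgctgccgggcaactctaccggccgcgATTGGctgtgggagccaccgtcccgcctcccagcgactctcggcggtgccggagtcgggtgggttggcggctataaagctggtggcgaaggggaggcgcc
INSIG1: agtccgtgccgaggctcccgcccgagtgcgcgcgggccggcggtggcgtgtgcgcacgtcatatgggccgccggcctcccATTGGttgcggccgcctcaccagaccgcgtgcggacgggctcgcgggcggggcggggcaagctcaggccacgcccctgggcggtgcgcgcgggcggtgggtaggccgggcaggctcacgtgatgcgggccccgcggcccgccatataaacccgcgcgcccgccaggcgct
SREBF2: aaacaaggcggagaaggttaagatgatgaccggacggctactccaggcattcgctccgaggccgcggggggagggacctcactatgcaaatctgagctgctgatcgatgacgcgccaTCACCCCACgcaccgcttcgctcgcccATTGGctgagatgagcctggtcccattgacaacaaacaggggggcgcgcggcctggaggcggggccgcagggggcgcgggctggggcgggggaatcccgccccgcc
ABCA1: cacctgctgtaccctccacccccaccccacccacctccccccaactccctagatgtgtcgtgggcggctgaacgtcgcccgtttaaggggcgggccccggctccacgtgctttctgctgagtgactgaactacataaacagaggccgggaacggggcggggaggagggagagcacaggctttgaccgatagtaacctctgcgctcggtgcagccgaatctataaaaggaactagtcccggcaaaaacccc

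Total counts ran from 54723184 to 145857940 per library. Levels below are CPM, counts scaled to a common library size by TMM, and a count of 3 was worth 0.0206 to 0.0548 CPM. Stage markers followed the labels as sums: the summed level of POU5F1, NANOG, SOX2 and PRDM14 was 38.1 to 199 CPM on day 4, against 705 to 1091 CPM on day 0, that of the streak genes T, MIXL1 and EOMES peaked at 1829 to 1932 CPM on day 1, and that of the endoderm genes SOX17, FOXA2, CXCR4 and HHEX was 364 to 958 CPM on day 4, against 10.7 to 18.1 CPM on day 0. Most of the streak sum on day 1 was MIXL1 (mean 1197 CPM), and EOMES was highest on day 2 (mean 498 CPM, against 230 CPM on day 1). Replicate 1 stood apart on days 3 and 4, with streak genes at 79.9 and 88.0 CPM, where the medians of those days were 606 and 510 CPM. Markers of other cell types moved too. The summed mesoderm markers (MESP1, TBX6, FOXF1, HAND1) stood at 1.31 to 1.75 CPM on day 0, 57.4 to 71.2 CPM on day 1 and 40.0 to 116 CPM on day 4, and the trophoblast and amnion pair GATA3 and CDX2 at 0.533 to 1.33, 56.7 to 102 and 24.2 to 105 CPM on the same days. On day 4 the mesoderm sum was mostly HAND1 (mean 78.0 CPM), with FOXF1 at 7.11, MESP1 at 2.17 and TBX6 at 1.3 CPM. The sum of the pair was mostly CDX2 on day 1 (mean 75.6 CPM, GATA3 3.52 CPM). On day 4 it was mostly GATA3 (54.6 CPM, CDX2 1.03 CPM). All 4 mesoderm genes and both of this pair were called higher on day 1 against day 0. The neural pair PAX6 and SOX1 stood at 0.837 to 3.05, 0.25 to 0.579 and 2.34 to 60.5 CPM, and the endothelial pair PECAM1 and CDH5 at 0.166 to 0.715, 0 to 0.0555 and 0.559 to 2.93 CPM. SOX1 had 0 CPM in the day 1 and day 4 libraries, so the neural sums of those days were PAX6 alone (day 4 mean 26.8 CPM, SD 30.1). The hepatocyte pair ALB and TTR stayed between 0 and 0.0707 CPM on these days. The part of these cell types in the results was not tested. Libraries of the same day also differed along base composition. Across the 28 members, the log2 level in day 0 replicate 4 minus the day 0 mean had a correlation of 0.87 with the GC content of the longest transcript, against -0.69 in replicate 1 and -0.45 in replicate 2. Over 16494 tested genes with a known GC content the same correlations were 0.70, -0.36 and -0.39. On day 2 the correlation over members was 0.67 in replicate 4, and on day 4 it was -0.63 in replicate 1. Each result was therefore also computed with transcript length and GC trends removed, an alternative chosen after the data were seen.

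**Figure D1:**
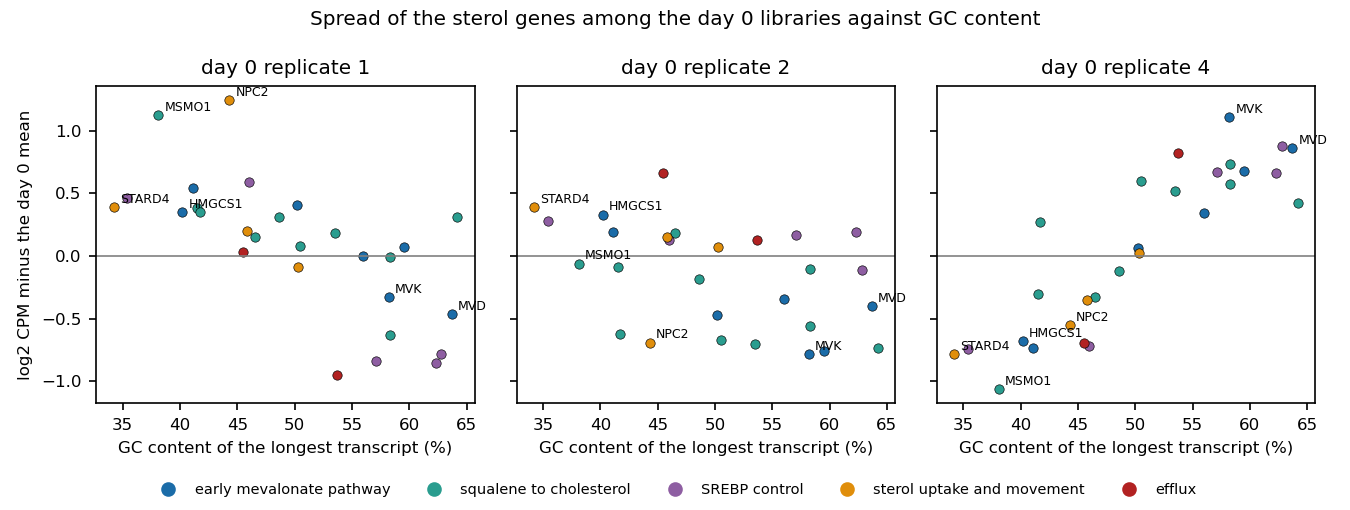
Log2 CPM of each of the 28 genes minus its mean over the day 0 libraries (y axis) against the GC content of its longest transcript in percent (x axis), in a panel for each day 0 library. Points slope upward in replicate 4 (correlation 0.87) and downward in replicate 1 (-0.69) and replicate 2 (-0.45).

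After a day of activin A with CHIR99021, 5 of the 17 sterol synthesis enzymes and both efflux genes had lower RNA. By edgeR's quasi-likelihood test with Benjamini-Hochberg adjustment over 17401 genes, 9 of 28 members (32.1%) were lower on day 1 than on day 0 and 0 were higher, where 10.4% of all tested genes were called, 4.88% lower and 5.49% higher. An unadjusted p under 0.05 was found for 14 members, all lower, and for 23.9% of all tested genes. DESeq2 called 10 members lower, MSMO1 in addition, and 0 higher, where it called 16.3% of all genes with an adjusted p, 8.33% lower and 8% higher. All 3 day 1 libraries lay below all day 0 libraries for 13 members and above them for 1, where 14.1% and 15.8% of all tested genes did so. Leaving out day 0 replicate 1 reduced the members called to 5, as did leaving out day 1 replicate 2. The median log2 fold change was -0.84 over the 17 synthesis enzymes, of which 16 had a negative value, and -3.93 over ABCA1 and ABCG1, against -0.02 over all tested genes.

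The early pathway was led by HMGCS1, the cytosolic enzyme that joins acetyl-CoA to acetoacetyl-CoA. HMGCS1 stood at 602, 926 and 563 CPM in day 1 replicates 1, 2 and 4, against 2696, 2656 and 1317 CPM in the same replicates of day 0. All day 1 libraries lay below all day 0 libraries, and the log2 fold change was -1.67 (SE 0.48, adjusted p = 0.0351). Leaving out day 0 replicate 1 or 2, or any day 1 library, ended this call, with the adjusted p over all alternatives between 0.00426 and 0.139. ACAT2, the thiolase that makes acetoacetyl-CoA in the cytosol, stood at 123, 143 and 128 CPM on day 1 and at 470, 255 and 368 CPM on day 0. Here too the days did not overlap (log2 fold change -1.47, SE 0.30, adjusted p = 0.0047), and the call held in all 25 alternatives. ACAT2 exons overlap SOD2 on the opposite strand over 26.5% of their length in GENCODE 29, and whether counting used strand is not given in the sources used here. IDI1, the isomerase of isopentenyl diphosphate, averaged 171 ± 22.2 CPM on day 1 and 379 ± 153 CPM on day 0 (SD, n = 3 each) and the decarboxylase gene MVD 29.9 ± 0.828 and 53.4 ± 30.1 CPM. Neither passed (adjusted p = 0.192 and 0.24), although their days did not overlap; with length and GC trends removed MVD passed (log2 fold change -1.13, SE 0.27, adjusted p = 0.00837). The kinase genes MVK (15.8 ± 2.33 against 17.5 ± 12.7 CPM) and PMVK (5.72 ± 0.489 against 6.63 ± 3.12 CPM) and FDPS, which makes farnesyl diphosphate (208 ± 25.0 against 288 ± 67.8 CPM), did not pass either.

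In the squalene to cholesterol group, FDFT1, the squalene synthase gene at the branch into sterols, changed with the smallest p. FDFT1 stood at 391, 405 and 330 CPM in day 1 replicates 1, 2 and 4, against 1293, 919 and 958 CPM on day 0. The log2 fold change was -1.49 (SE 0.27, adjusted p = 0.00159), and the call held in all 25 alternatives. CYP51A1, the lanosterol demethylase gene, had 290, 289 and 288 CPM on day 1, against 732, 528 and 456 CPM on day 0. The day 1 libraries were nearly equal and all below day 0 (log2 fold change -0.99, SE 0.28, adjusted p = 0.0334). A same-strand neighbour annotated in GENCODE 29, AC000120.2, shares 79.4% of CYP51A1 exonic bases, so its reads may be split. The sterol reductase gene TM7SF2 had 8.29, 4.73 and 10.3 CPM on day 1 and 24.3, 11.8 and 26.2 CPM on day 0, again without overlap (log2 fold change -1.42, SE 0.40, adjusted p = 0.0328). The CYP51A1 call was lost in 7 alternatives (a fit of only these days, and without day 0 replicate 1 or 2, any day 1 library or day 2 replicate 2; adjusted p 0.00542 to 0.126 over all alternatives). The TM7SF2 call was lost in 6 (library totals alone, and without day 0 replicate 1 or 4, day 1 replicate 1 or 2 or day 2 replicate 2; 0.00469 to 0.165).

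The other late enzymes did not pass. SQLE, the squalene epoxidase gene, averaged 199 ± 37.4 CPM on day 1 and 391 ± 72.1 CPM on day 0 with no overlap (adjusted p = 0.111), and MSMO1, a methyl sterol oxidase gene, 251 ± 60.0 and 725 ± 524 CPM (adjusted p = 0.0923). Values for the cyclase gene LSS were 177 ± 22.8 and 288 ± 139 CPM and for the final reductase gene DHCR7 175 ± 46.9 and 298 ± 115 CPM. With length and GC trends removed, SQLE (log2 fold change -0.99, SE 0.31, adjusted p = 0.0387), LSS (-0.99, SE 0.28, adjusted p = 0.0248) and DHCR7 (-1.09, SE 0.30, adjusted p = 0.0209) passed by edgeR, and 13 members in all were then lower, where 8.47% of all tested genes were. NSDHL, a decarboxylating dehydrogenase gene (62.5 ± 10.9 against 77.4 ± 32.1 CPM), and EBP, the sterol isomerase gene (51.8 ± 16.8 against 89.6 ± 34.9 CPM), did not pass. HSD17B7, a ketosteroid reductase gene of the C4 demethylation steps, was the only synthesis enzyme with a positive log2 fold change on day 1 (0.37 with SE 0.30, adjusted p = 0.497).

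Export genes had the largest log2 fold changes of all members on day 1. ABCA1, which loads cholesterol onto apolipoprotein A-I, had 5.85, 7.08 and 6.77 CPM in day 1 replicates 1, 2 and 4, against 73.6, 114 and 44.6 CPM on day 0. The lowest day 0 library was several times the highest day 1 library, and the log2 fold change was -3.56 (SE 0.69, adjusted p = 0.003). ABCG1, which passes cholesterol to larger lipoprotein particles, had 0.388, 0.206 and 0.362 CPM on day 1 and 2.89, 6.16 and 9.95 CPM on day 0. Its log2 fold change was -4.30 (SE 0.93, adjusted p = 0.00671). MYLIP, the third LXR-responsive gene, had 9.26, 9.43 and 9.12 CPM on day 1, against 41.6, 40.4 and 28.5 CPM on day 0 (log2 fold change -1.99 with SE 0.43, adjusted p = 0.00675). The days did not overlap for any of the 3 genes, and all 3 calls held in all 25 alternatives.

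Among genes of sterol movement, NPC2, the soluble lysosomal protein that hands cholesterol to the membrane protein NPC1, was lower on day 1. NPC2 had 71.7, 46.4 and 48.8 CPM on day 1, against 344, 89.7 and 98.9 CPM on day 0. The first day 0 library was far above the others, and the log2 fold change of -1.67 (SE 0.42, adjusted p = 0.0173) lost its call without day 0 replicate 1 and without day 1 replicate 2 or 4 (adjusted p 0.00174 to 0.121 and log2 fold change -2.0 to -0.76 over all alternatives). NPC1 averaged 154 ± 19.6 CPM on day 1 and 119 ± 6.53 CPM on day 0, without overlap, and did not pass (log2 fold change 0.37, SE 0.25, adjusted p = 0.387). STARD4, a soluble sterol carrier, averaged 56.9 ± 18.3 CPM on day 1 and 117 ± 46.1 CPM on day 0 (adjusted p = 0.251). None of the 5 SREBP control genes passed by edgeR, at adjusted p between 0.13 and 0.922. INSIG1, which retains SREBP and is itself an SREBP target, had 78.5, 131 and 84.0 CPM on day 1 and 392, 285 and 158 CPM on day 0 without overlap (log2 fold change -1.51, SE 0.60, adjusted p = 0.13). It passed by edgeR in 3 of 25 alternatives, among them a fit of only these days (adjusted p = 0.0189) and one without day 2 replicate 4 (0.0337). SREBF1 was called higher on day 1 by edgeR without day 0 replicate 4 (log2 fold change 0.95, SE 0.30, adjusted p = 0.0465). SREBF2, which encodes SREBP2, averaged 284 ± 6.7 CPM on day 1 and 270 ± 128 CPM on day 0, and SCAP 88.0 ± 2.47 and 80.6 ± 37.9 CPM.

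**Figure D2:**
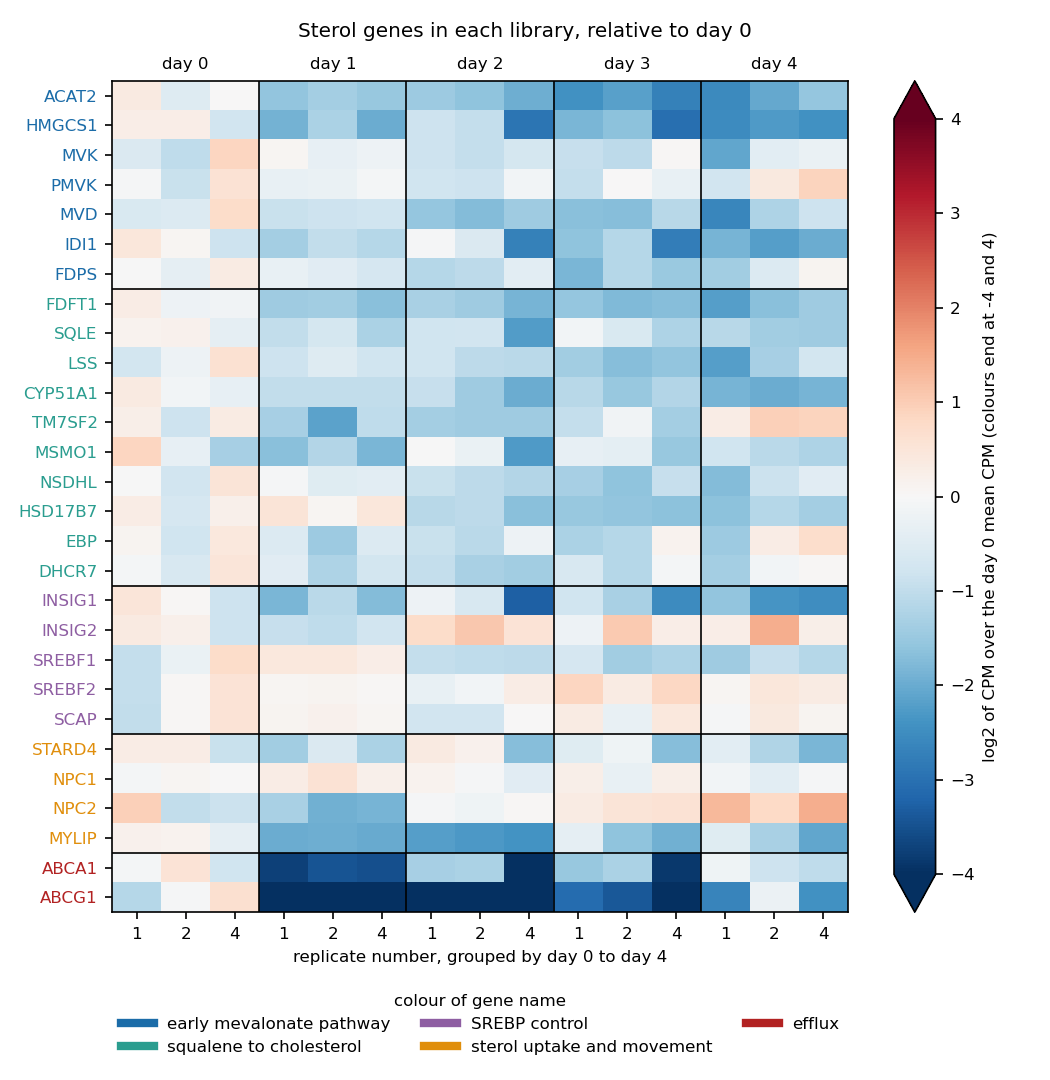
Log2 of CPM over the day 0 mean (colour) for each of the 28 genes (rows, grouped by role) in each of the 15 libraries (columns, replicates 1, 2 and 4 of days 0 to 4). Most synthesis rows turn blue from day 1 on, ABCA1 and ABCG1 are dark blue in all day 1 libraries, when ABCA1 was at 5.85 to 7.08 CPM, and NPC2 turns red by day 4.

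On day 2, a day later and without CHIR99021, HSD17B7 and SREBF1 were lower and INSIG2 and NPC2 higher. These were 4 of 28 members (14.3%) for day 2 against day 1, where 8.27% of all tested genes were called, 4.93% higher and 3.34% lower. With length and GC trends removed, 14.3% of members were again called, near the 15.2% of all tested genes. Day 2 libraries lay above all day 1 libraries for 2 members and below them for 8, where 17.2% and 18.5% of all tested genes did so. The count of members called was 1 without any of the day 1 libraries or day 2 replicate 2 and 2 without day 2 replicate 1. HSD17B7 had 14.5, 15 and 9.65 CPM in day 2 replicates 1, 2 and 4, against 44.1, 33.0 and 42.8 CPM on day 1. It was not called on day 1 and was called here (log2 fold change -1.62, SE 0.31, adjusted p = 0.00429), in all 25 alternatives too. Reads of HSD17B7 may be shared with 2 annotated pseudogenes, those of FDPS with 8 and those of CYP51A1 with 3. SREBF1, which encodes SREBP1, the relative of SREBP2 that favours fatty acid genes, had 49.5, 48.2 and 46.2 CPM on day 2, against 128, 130 and 116 CPM on day 1 (log2 fold change -1.38 with SE 0.35, adjusted p = 0.023). INSIG2, the INSIG form that is not an SREBP target, had 33.2, 42.4 and 29 CPM on day 2, against 10.6, 9.99 and 11.9 CPM on day 1 (log2 fold change 1.69 with SE 0.42, adjusted p = 0.021). The 3 libraries of each day were close together and apart from the other day for both genes. Leaving out any single library of either day ended the SREBF1 call (adjusted p 0.00173 to 0.101 over all alternatives), and leaving out any day 1 library or day 2 replicate 2 ended that of INSIG2 (0.00153 to 0.0872).

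NPC2 had 172, 157 and 183 CPM on day 2, against 71.7, 46.4 and 48.8 CPM on day 1. These did not overlap (log2 fold change 1.62, SE 0.42, adjusted p = 0.0258), and the call was lost without any single library of either day (0.00126 to 0.109 over all alternatives). ABCA1 had 30.6, 32.0 and 4.85 CPM on day 2, so that replicates 1 and 2 lay above and replicate 4 below the day 1 libraries, at 5.85, 7.08 and 6.77 CPM. It did not pass by edgeR (log2 fold change 1.78, SE 0.64, adjusted p = 0.108). ABCA1 passed by DESeq2 (adjusted p = 0.0359), and by edgeR without day 2 replicate 4 (log2 fold change 2.25, SE 0.54, adjusted p = 0.022) or without day 3 replicate 4 (0.0452). Replicate 4 of day 2 was the highest of its day for 8 of the 28 members and, as with ABCA1, the lowest for 20. HMGCS1, for example, had 1265, 1145 and 296 CPM on day 2, against 602, 926 and 563 CPM on day 1, and INSIG1 243, 177 and 29.2 CPM, against 78.5, 131 and 84.0 CPM. The sterol synthesis genes IDI1 (367, 256 and 58.6 CPM on day 2) and MSMO1 (720, 608 and 151 CPM on day 2) and the carrier gene STARD4 (149, 130 and 35.7 CPM on day 2) showed the same order, with replicate 4 lowest, and none of these 5 genes passed. Their GC contents ran from 34.2% (STARD4) to 46% (INSIG1), and deviations in this library had a correlation of 0.67 with GC content over the members. The part of GC content in this order was not tested.

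Between day 2 and day 3, and between day 3 and day 4, no member passed by edgeR or by DESeq2. An unadjusted p under 0.05 was found for 3 members between days 3 and 2 and for 4 between days 4 and 3, where 14.2% and 6.17% of all tested genes had one. Of all tested genes, 0.948% were called for day 3 against day 2, 0.661% higher and 0.287% lower, and 0% for day 4 against day 3 (5.74% and 0.395% by DESeq2). On day 3, 4 members lay above and 2 below all day 2 libraries, where 9.1% and 8.75% of all tested genes did so. For the exporters, ABCA1 had 68.6, 43.7 and 38.0 CPM on day 4, all above the 26.9, 32.5 and 5.36 CPM of day 3 (log2 fold change 1.21, SE 0.63, adjusted p = 0.825). ABCG1 had 1.02, 5.33 and 1.17 CPM on day 4 and 0.747, 0.601 and 0.0243 CPM on day 3, where the last value is a count of 2, below the floor of 3 counts at 0.0346 CPM in that library (log2 fold change 2.44, SE 0.86, adjusted p = 0.68). NPC2 had 436, 309 and 484 CPM on day 4, against 224, 253 and 264 CPM on day 3, and TM7SF2 had 25.5, 40.1 and 38.8 CPM against 10.8, 18.8 and 8.18 CPM. These 4 members had no overlap between day 4 and day 3 libraries with day 4 higher, and CYP51A1 none with day 4 lower (154 ± 7.23 against 240 ± 34.7 CPM), where 4.95% and 4.32% of all tested genes did so.

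**Figure D3:**
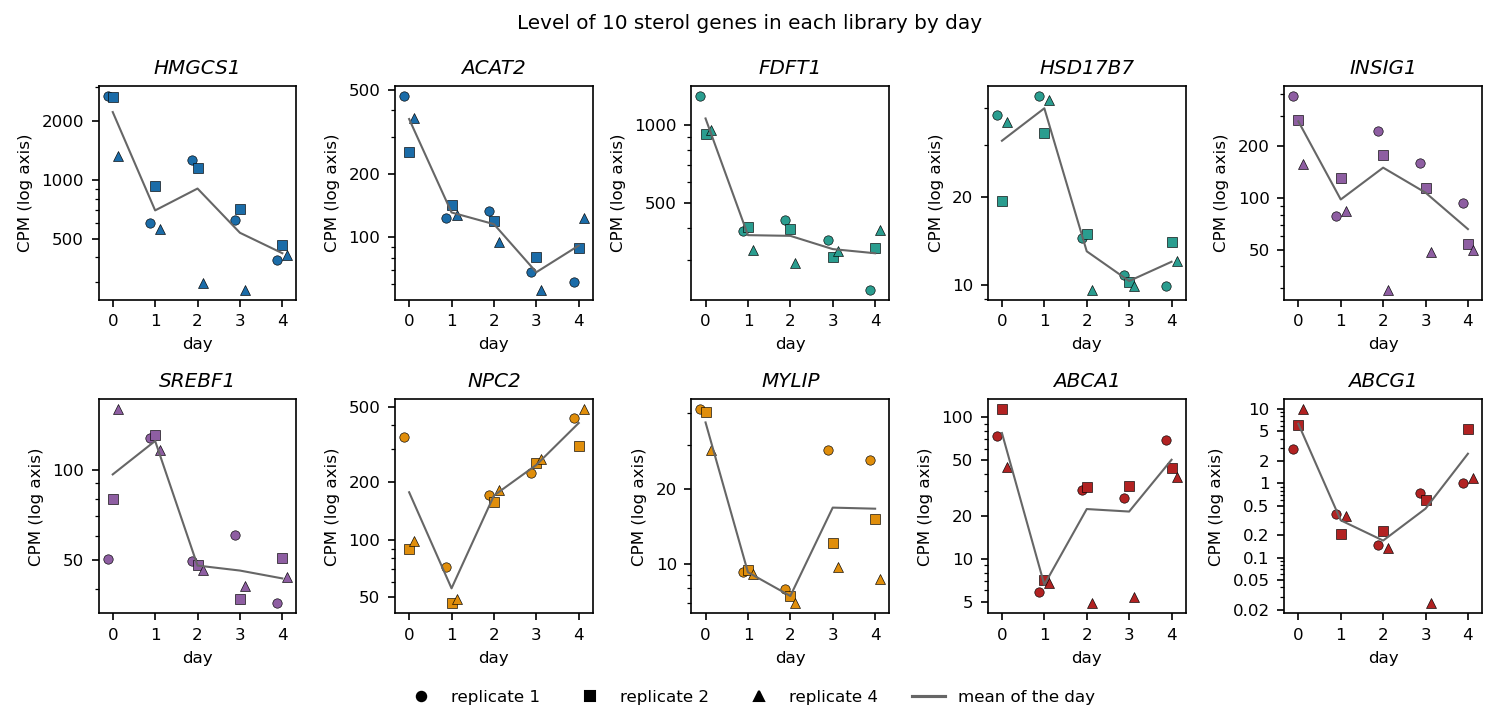
CPM on log axes for 10 members in each library (points, marked by replicate) by day, with the mean of each day as a line. HSD17B7 drops after day 1, NPC2 dips on day 1 and reaches 309 to 484 CPM on day 4, and ABCA1 and ABCG1 are lowest on days 1 to 3.

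Over the whole course, 9 of the 17 sterol synthesis enzymes were lower on day 4 and neither efflux gene passed. Of 28 members, 12 were lower and 1 higher on day 4 against day 0, where 34.2% of all tested genes were called, 16.2% lower and 18% higher. Day 4 libraries lay below all day 0 libraries for 10 members and above them for 0, where 19.5% and 21.1% of all tested genes did so. The 9 synthesis enzymes among the 12 were ACAT2, HMGCS1, MVD, IDI1, FDFT1, SQLE, LSS, CYP51A1 and HSD17B7, and the others were INSIG1, SREBF1 and MYLIP. A fit of only the libraries of both days called 8 members, all lower, and leaving out day 4 replicate 2 called 8, of which 7 were lower. The median log2 fold change of the 17 enzymes was -1.30, against -0.02 over all tested genes.

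HMGCS1 had 388, 462 and 412 CPM in day 4 replicates 1, 2 and 4, against 2696, 2656 and 1317 CPM on day 0. Its log2 fold change of -2.40 (SE 0.49, adjusted p = 0.00174) was the largest of the enzymes. IDI1 had 105, 83.0 and 94.8 CPM on day 4, against 518, 404 and 214 CPM on day 0 (log2 fold change -2.0 with SE 0.54, adjusted p = 0.00956), and ACAT2 had 61.7, 88.8 and 124 CPM, against 470, 255 and 368 CPM (-1.99, SE 0.31, adjusted p = 2.06e-04). For all 3 genes every day 4 library lay below every day 0 library. CYP51A1 had 158, 146 and 159 CPM on day 4, against 732, 528 and 456 CPM on day 0 (log2 fold change -1.89 with SE 0.29, adjusted p = 1.7e-04). FDFT1 had 231, 335 and 393 CPM on day 4, against 1293, 919 and 958 CPM on day 0 (-1.72 with SE 0.27, adjusted p = 2.13e-04), and HSD17B7 9.97, 14 and 12.1 CPM, against 37.8, 19.4 and 35.8 CPM (-1.37, SE 0.31, adjusted p = 0.00351). The calls of these 6 genes held in all 25 alternatives and their days did not overlap.

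SQLE averaged 158 ± 18.8 CPM on day 4 and 391 ± 72.1 CPM on day 0 (adjusted p = 0.0131), a call that ended without day 4 replicate 2 (adjusted p 0.00168 to 0.0525 over all alternatives). MVD averaged 20.4 ± 10.7 and 53.4 ± 30.1 CPM (log2 fold change -1.39, SE 0.42, adjusted p = 0.0195) and LSS 117 ± 55.7 and 288 ± 139 CPM (-1.30, SE 0.37, adjusted p = 0.013). Both of these calls ended in a fit of only the libraries of both days, without day 0 replicate 4, without day 4 replicate 1 or 2, and without replicate 1 of days 3 and 4 together, with adjusted p up to 0.157 for MVD and 0.0956 for LSS. With length and GC trends removed both held, at log2 fold changes of -2.10 (SE 0.27, adjusted p = 3.51e-05) for MVD and -1.92 (SE 0.29, adjusted p = 1.14e-04) for LSS. Enzymes that did not pass on day 4 included TM7SF2 (34.8 ± 8.06 against 20.8 ± 7.81 CPM), PMVK (8.37 ± 4.29 against 6.63 ± 3.12 CPM) and EBP (96.4 ± 57.4 against 89.6 ± 34.9 CPM), the enzymes with a positive log2 fold change (0.74, 0.33 and 0.11). With length and GC trends removed these were 0.01 for TM7SF2, -0.12 for PMVK and -0.14 for EBP, so the direction turned for PMVK and EBP. The others were MVK, FDPS, MSMO1, NSDHL and DHCR7, with adjusted p between 0.0564 and 0.525. Of these, MVK (log2 fold change -1.26, SE 0.36, adjusted p = 0.0115), FDPS (-0.90, SE 0.26, adjusted p = 0.0106), NSDHL (-0.98, SE 0.27, adjusted p = 0.00965) and DHCR7 (-0.90, SE 0.30, adjusted p = 0.0235) passed once those trends were removed. NSDHL also passed by DESeq2 (adjusted p = 0.0498) and by edgeR without day 0 replicate 2 or without day 4 replicate 4. With those trends removed the median of all tested genes was -0.12. In that alternative 17 members were lower and 2 higher on day 4, where 23.6% and 19.7% of all tested genes were.

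Among control genes, INSIG1 and SREBF1 were lower on day 4. INSIG1 had 93.7, 54.2 and 49.6 CPM in day 4 replicates 1, 2 and 4, against 392, 285 and 158 CPM on day 0, with no overlap (log2 fold change -2.08, SE 0.61, adjusted p = 0.0159). SREBF1 had 35.9, 50.7 and 43.8 CPM on day 4 and 50.3, 80.1 and 159 CPM on day 0, with overlap (-1.15, SE 0.35, adjusted p = 0.0189). The INSIG1 call ended without day 0 replicate 1 and without day 4 replicate 2 or 4 (adjusted p 0.00161 to 0.0688 over all alternatives). The SREBF1 call ended in 5 alternatives: a fit of only the libraries of both days, without day 0 replicate 4, without day 4 replicate 1 or 4, and without replicate 1 of days 3 and 4 together (adjusted p 1.16e-04 to 0.161 and log2 fold change -1.84 to -0.53 over all alternatives). SREBF2 averaged 332 ± 44.6 CPM on day 4 and 270 ± 128 CPM on day 0 (log2 fold change 0.30 with SE 0.32, adjusted p = 0.501). SCAP (90.2 ± 14.2 against 80.6 ± 37.9 CPM) and INSIG2 (34.3 ± 18.1 against 20.0 ± 7.75 CPM) did not pass. With those trends removed INSIG2 was called higher (log2 fold change 1.43, SE 0.41, adjusted p = 0.011). SCAP had a log2 fold change of 0.16 in this comparison and of -0.54 (SE 0.19, adjusted p = 0.0317) with those trends removed, and SREBF2 then had -0.25 (SE 0.16, adjusted p = 0.23), so both directions turned with that choice.

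NPC2 was the only member called higher on day 4. It had 436, 309 and 484 CPM on day 4, against 344, 89.7 and 98.9 CPM on day 0, where the high replicate 1 of day 0 overlapped with day 4 (log2 fold change 1.21, SE 0.42, adjusted p = 0.0344). The call ended in a fit of only the libraries of both days, without day 0 replicate 2 or 4, without day 4 replicate 4, and without replicate 1 of days 3 and 4 together (adjusted p 2.24e-04 to 0.117 and log2 fold change 0.92 to 2.15 over all alternatives). MYLIP had 26.1, 15.1 and 8.73 CPM on day 4, against 41.6, 40.4 and 28.5 CPM on day 0 (log2 fold change -1.14 with SE 0.42, adjusted p = 0.0463). That call held in 13 of 25 alternatives. It was lost with library totals alone, with no filter, in a fit of only both days, and without day 0 replicate 1 or 2, any day 1 library, day 2 replicate 1 or 2 or day 4 replicate 2 or 4 (adjusted p up to 0.175). NPC1 averaged 105 ± 14.7 CPM on day 4 and 119 ± 6.53 CPM on day 0, and STARD4 56.7 ± 27.5 and 117 ± 46.1 CPM; neither passed. For efflux, ABCA1 had 68.6, 43.7 and 38.0 CPM on day 4, which overlapped the 73.6, 114 and 44.6 CPM of day 0 (log2 fold change -0.63, SE 0.63, adjusted p = 0.465). ABCG1 had 1.02, 5.33 and 1.17 CPM on day 4 and 2.89, 6.16 and 9.95 CPM on day 0 (-1.33 with SE 0.82, adjusted p = 0.221).

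**Figure D4:**
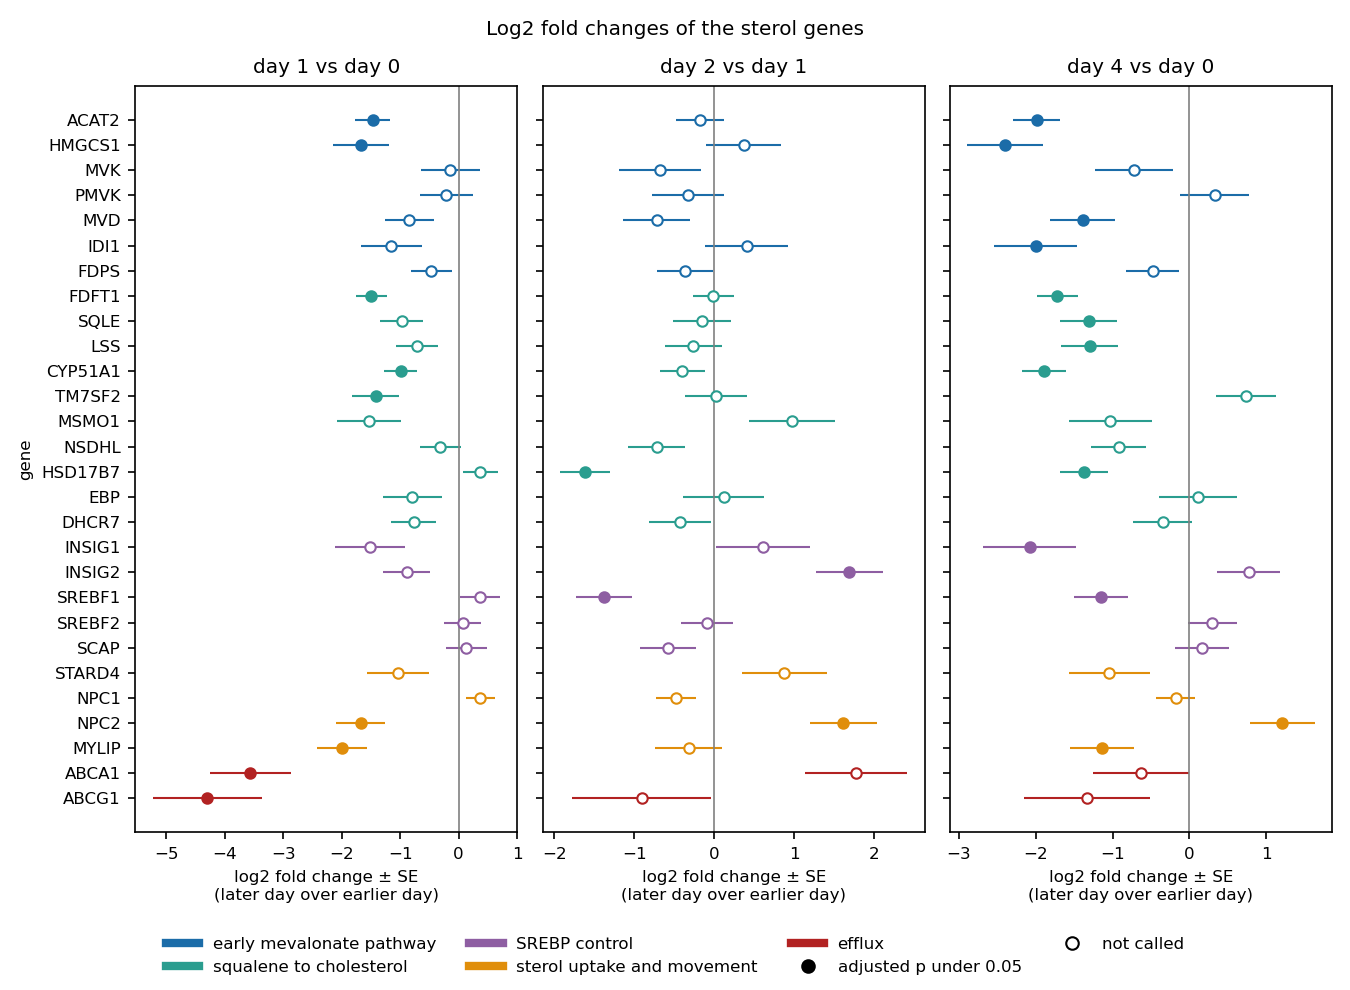
Log2 fold change with its SE (x axis, later day over earlier day) of each of the 28 genes (y axis, grouped by role) for day 1 vs day 0, day 2 vs day 1 and day 4 vs day 0. Filled points passed at adjusted p under 0.05: 9 genes, all lower, on day 1, 4 on day 2, and 13 on day 4, of which NPC2 alone was higher.

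By the joint test of the 5 days, 18 of 28 members (64.3%) changed, where 37.3% of all tested genes did. They comprised 12 of the 17 enzymes, INSIG2 and SREBF1 among the 5 control genes, NPC2 and MYLIP, and both efflux genes. FDPS and NSDHL were called by the joint test and in none of the 5 pairs of days compared with edgeR in the fit of all libraries, at adjusted p = 0.0365 and 0.0372. The highest daily mean fell on day 0 for 18 members, among them 13 of the 17 enzymes and both exporters. Members whose mean was highest on day 4 were PMVK, TM7SF2, EBP and NPC2. As a ratio of the highest to the lowest day mean, the range between days was widest for ABCG1, at 37.2. Its day means were 6.33 ± 3.54, 0.319 ± 0.0988, 0.17 ± 0.0486, 0.457 ± 0.382 and 2.51 ± 2.45 CPM from day 0 to day 4 (SD, n = 3).

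The summed levels of the role groups are given as a description, with no test. The 17 enzymes together had 6881 ± 1475, 2886 ± 314, 3095 ± 1191, 2571 ± 434 and 2376 ± 405 CPM from day 0 to day 4 (SD, n = 3), and every later library lay below every day 0 library. Uptake and movement genes summed to 450 ± 170, 276 ± 33.1, 393 ± 74.6, 463 ± 14.5 and 588 ± 108 CPM. This sum does not measure uptake, since the group holds no lipoprotein receptor gene and MYLIP lowers uptake. NPC2 set this course: without it, STARD4, NPC1 and MYLIP summed to 272 ± 52.5, 220 ± 37.6, 222 ± 82.8, 216 ± 34.5 and 178 ± 39.9 CPM, and the median log2 fold change of the 4 genes for day 4 against day 0 was -0.61. Both exporters summed to 83.7 ± 33.3, 6.88 ± 0.562, 22.7 ± 15.3, 22.1 ± 14.7 and 52.6 ± 15.5 CPM, so that the lowest day of the sum was day 1 and day 4 lay between. ABCA1 made most of the sum on every day, and ABCG1 had its lowest mean on day 2 (0.17 CPM, against 0.319 CPM on day 1). Control genes summed to 746 ± 95.1, 605 ± 41.8, 559 ± 40.3, 707 ± 114 and 566 ± 64.1 CPM. These sums weigh the most abundant members most and are not corrected for transcript length.

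**Figure D5:**
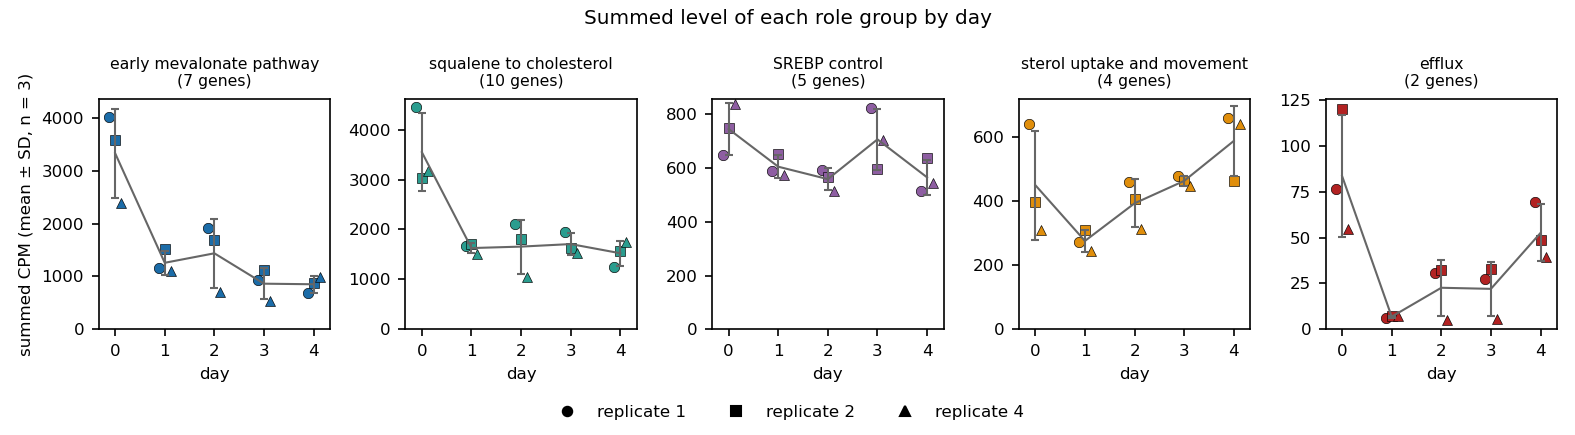
Summed CPM of each role group (y axis, each panel from 0) in each library by day, with mean ± SD of 3 libraries as the grey line and bars. The early pathway drops after day 0 and stays low, and efflux dips to 6.24 to 7.28 CPM on day 1. The sum of the uptake and movement group dips on day 1 and reaches 463 to 660 CPM on day 4, of which NPC2 was 309 to 484 CPM. This group holds no lipoprotein receptor gene.

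Other genes of the pathway came from lists written with earlier results of these data known. Of 26 further cholesterol genes, day 1 against day 0 called 3 higher and 4 lower (26.9%, against 10.4% of all tested genes), with a median log2 fold change of 0.17. Day 4 against day 0 called 5 higher and 5 lower (38.5%, near the 34.2% of all tested genes), with a median of 0.28. The median of all tested genes was -0.02 in both comparisons. CYP27A1, which makes an oxysterol that activates LXR, had 7.07, 5.73 and 7.04 CPM on day 1, against 1.30, 0.933 and 2.40 CPM on day 0 (log2 fold change 2.10 with SE 0.59, adjusted p = 0.0313). It reached 30.8, 112 and 107 CPM on day 4 (log2 fold change over day 0 5.75, SE 0.69, adjusted p = 2.14e-05). LIPA, the lysosomal lipase that frees cholesterol from its esters, had 22.5, 24.5 and 20.8 CPM on day 1, against 136, 80.6 and 46.9 CPM on day 0 (-1.96 with SE 0.40, adjusted p = 0.00415). CH25H, which makes another oxysterol, had no count in the day 1 libraries, against 0.426, 0.298 and 0.171 CPM on day 0, and passed (adjusted p = 0.0282). VLDLR, a lipoprotein receptor gene, was higher on day 2 against day 1 (log2 fold change 1.33, SE 0.31, adjusted p = 0.0138). LIPA had 18.2, 7.57 and 13.8 CPM on day 4, against 136, 80.6 and 46.9 CPM on day 0 (log2 fold change -2.74 with SE 0.41, adjusted p = 1.55e-04).

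Fatty acid genes known to respond to SREBP were mostly lower where called. Of 15, 14 were tested, and 7 were called lower and 1 higher on day 4 against day 0, with a median log2 fold change of -0.94, where 16.2% of all tested genes were lower and 18% higher with a median of -0.02. On day 1, 3 were lower and 1 higher (28.6%, against 10.4% of all tested genes). ELOVL6, a fatty acid elongase gene, had 153, 100 and 108 CPM on day 4, against 453, 409 and 327 CPM on day 0 (log2 fold change -1.72 with SE 0.27, adjusted p = 2.03e-04). SCD, the stearoyl-CoA desaturase gene, had 1511, 937 and 1107 CPM on day 4, against 3685, 3666 and 2305 CPM on day 0 (-1.44 with SE 0.31, adjusted p = 0.00275). LPIN1, a phosphatidate phosphatase gene, was the gene that rose, to 61.2, 46.4 and 37.2 CPM on day 4, against 23.3, 14.9 and 14.5 CPM on day 0 (1.46 with SE 0.34, adjusted p = 0.00399). No day 4 library of ELOVL6, SCD or LPIN1 overlapped day 0.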

How the data were processed

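For each library the authors deposited raw read counts by gene symbol, without normalization. Per the submitters' processing notes, hg19 and TopHat2 (2.0.14) were used; per the labels' protocols, libraries were polyA-selected and directional. How reads were assigned to genes, with which annotation and strand setting, is not given in the sources used here. Every count is even, so both reads of a pair appear to be counted. Of 23398 entries, 52 repeated a symbol: 44 identical entries were dropped and 8 were summed.

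Tests used edgeR 4.0.16 (quasi-likelihood F-test, TMM scaling, filterByExpr by day leaving 17401 genes, a mean per day, all 15 libraries together) in R 4.3.3, with Benjamini-Hochberg adjustment over all tested genes and a call at adjusted p under 0.05. The SE of a log2 fold change was its size divided by the square root of F. The biological coefficient of variation was 45.6%. Alternatives were DESeq2 1.42.0 as the test and for size factors, library totals alone, other filters, halved counts, the replicate number as a block, fewer days or libraries, and removal of transcript length and GC trends by spline offsets per library (GENCODE 29, known for 94.8% of tested genes). The code was tested on simulated data. Tables and figures used Python 3.11.15, pandas 2.3.3 and matplotlib 3.10.9. Floors cover counting error only.

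Members and lists were chosen with earlier results of these data known. Values per library are given for called members, at most 3 per role group and comparison by absolute log2 fold change, and otherwise where their order among libraries is described, a choice made after the values were seen. From each further list, up to 3 called genes per comparison with the largest absolute log2 fold change are named, apart from a result that is not reported here.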

Additional observations from a re-analysis of the deposited data

How the results depend on the processing

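Each call was recomputed under 25 alternatives. Of 26 member changes called between days, none changed direction under any of them and 12 kept their call under all; of 650 alternative values, 73 lost the call. The count of members called on day 1 vs day 0 was 5 to 12 with single libraries left out (9 with all), on day 2 vs day 1 it was 1 to 5 (4), on day 4 vs day 0 it was 8 to 13 (13), by the joint test it was 12 to 18 (18), and on day 3 vs day 2 and day 4 vs day 3 it was 0 throughout. A fit of only the days compared called 8 members on day 4 vs day 0; that fit has fewer libraries. Without replicate 1 of days 3 and 4 together, 9 members were called on day 4 vs day 0. With transcript length and GC trends removed, an alternative chosen after the data were seen, 13 members were called on day 1, 19 on day 4 and 22 by the joint test, including all those of the main analysis. These were 46.4%, 67.9% and 78.6% of members, where 16.1%, 43.3% and 51.5% of all tested genes were called. Replicate numbers did not pair the libraries by the rule used: 21 of 30 same-numbered pairs of libraries had deviations correlated above 0.1, from -0.205 to 0.625, and 10 of 15 libraries correlated best with their own number. With the number as a replicate block, 12 members were called on day 1 vs day 0, 4 on day 2 vs day 1, 15 on day 4 vs day 0 and 19 by the joint test, each set holding the main calls and adding INSIG1, MSMO1 and SQLE on day 1 and NSDHL and STARD4 on day 4. These were 42.9%, 14.3%, 53.6% and 67.9% of members, where 16.7%, 14.2%, 43% and 49.3% of all tested genes were called. The share of members on day 2 vs day 1 was thus near that of all genes. Depth limits ABCG1, whose values on days 1 to 3 reach down to a count of 2, under the floor of 3.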
